A study of Mus musculus with 12 samples.

Results

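Interleukins are the cytokines by which immune and tissue cells signal to each other, and 29 of the 750 endogenous genes on the panel used here encode an interleukin, an interleukin receptor chain or a binding protein of one. They were taken as every endogenous probe whose symbol begins with Il and a digit, and they comprise 14 ligands, 13 receptor chains and 2 secreted inhibitors. The genes were counted in 12 mammary tumours of MMTV-PyMT mice, a model in which the mouse mammary tumour virus promoter drives polyoma middle T antigen in mammary epithelium. All 12 received PTX, taken here as the chemotherapy of the series title, and the PTX group (n = 2) is labelled with nothing else. The other 4 groups also carried PLX, taken here as the CSF1R inhibitor that the title implies: PLX+PTX (n = 2), PLX+PTX with an antibody against PD-1 and the suffix R (n = 3) or NR (n = 3), and PLX+PTX with an antibody against PD-L1 (n = 2). The suffixes are not expanded in the labels and serve here as the names R and NR. Without an untreated group, every comparison is between treated tumours. No age is labelled. The labels do not say whether replicates are different animals, so each p-value reflects the spread of these samples, part of which may be technical.

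Interleukins act through receptor chains that are often shared. The interleukin-1 family (Il1a, Il1b, Il18, Il33) signals through receptors of immunoglobulin type and the adaptor MyD88, and is held in check by the receptor antagonist Il1rn, the decoy receptor Il1r2 and the binding protein Il18bp. Receptors for interleukins 2, 4, 7, 15 and 21 contain the common gamma chain Il2rg, and those for interleukins 6, 11, 12 and 23 belong to the gp130 and interleukin-12 receptor family. These receptors, like those of interleukins 10, 22 and 24, work through Janus kinases and STAT factors. Il34 differs from the rest in that its receptor is CSF1R, the receptor that also binds Csf1 and keeps tissue macrophages alive.

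The 3 genes that passed the test in any comparison below were the receptor chains Il6ra, Il18r1 and Il22ra1. Their upstream sequences are printed to show which DNA lies before the transcription start of the genes that the results turn on. Each is the 250 bases before the most upstream start annotated by RefSeq on GRCm38.p6, written 5′ to 3′ on the gene's strand, at chr3:89913197-89913446 on the minus strand for Il6ra, chr1:40465302-40465551 on the plus strand for Il18r1 and chr4:135727909-135728158 on the plus strand for Il22ra1.
Il6ra: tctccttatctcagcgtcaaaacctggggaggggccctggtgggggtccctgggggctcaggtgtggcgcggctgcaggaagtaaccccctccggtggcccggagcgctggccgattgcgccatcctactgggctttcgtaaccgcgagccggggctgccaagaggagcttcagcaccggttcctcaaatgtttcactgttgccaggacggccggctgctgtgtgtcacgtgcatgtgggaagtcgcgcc
Il18r1: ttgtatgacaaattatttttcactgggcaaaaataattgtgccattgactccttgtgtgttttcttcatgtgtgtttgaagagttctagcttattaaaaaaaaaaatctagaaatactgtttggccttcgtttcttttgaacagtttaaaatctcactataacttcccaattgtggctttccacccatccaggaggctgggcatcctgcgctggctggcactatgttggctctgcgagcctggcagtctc
Il22ra1: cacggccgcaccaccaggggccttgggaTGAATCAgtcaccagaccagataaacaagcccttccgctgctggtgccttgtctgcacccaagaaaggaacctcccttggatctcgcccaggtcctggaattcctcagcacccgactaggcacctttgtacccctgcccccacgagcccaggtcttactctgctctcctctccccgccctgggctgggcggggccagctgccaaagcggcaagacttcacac
Capitals mark a match to the AP-1 motif, and 3 motifs were searched on both strands: TTCNNNGAA, the element bound by STAT dimers, TGANTCA, bound by AP-1, and TTGCNNAA, bound by C/EBP factors. They occur in 7.02%, 6.75% and 9.56% of all 32851 windows of this length. The Il22ra1 window held 1 match, to AP-1, beginning 222 bases before the start, and those of Il6ra and of the first of 3 annotated Il18r1 starts held none. The window of the third Il18r1 start held 2 matches to the STAT element. Among the 23 interleukin genes with a window, 4 had a STAT match (Il12rb2, Il18r1, Il1r2 and Il7r), 7 an AP-1 match and 7 a C/EBP match. Some genes have several starts: counted by window, as in the percentages above, the matches were 4, 7 and 7 of 33. The guanine and cytosine content was 65.2% for Il6ra, 62.4% for Il22ra1 and 40.8% for the first Il18r1 window. A match is a description of the letters and not a bound site.

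Libraries differed in depth. Total endogenous counts were 298726 to 531086 in 9 libraries but 128083 in R replicate 2 and 141021 and 98741 in the PD-L1 antibody group. The geometric mean of the 20 housekeeping probes was 127, 189 and 86.6 counts in the same order, and 260.4 to 450.2 elsewhere. Scaling on these probes, which gives the normalised counts below, lifts background with signal: the scaled mean of the 8 negative-control probes was 12.4 ± 2.39 (SD, n = 2) in PTX, 14.8 ± 2.43 (n = 2) in PLX+PTX, 20.9 ± 2.63 (n = 3) in R, 11.9 ± 2.28 (n = 3) in NR and 27.2 ± 7.50 (n = 2) in the PD-L1 antibody group. A gene was called above the detection limit in a library when its raw count passed the negative-control mean plus 2 SD, which was 19.1 to 35.6 counts. The epithelial genes Epcam and Cdh1 were above this limit in 12 of 12 libraries. Of the defining T cell genes, Cd3d, Cd8a and Cd8b1 were above it in 0 libraries, Cd3e in 1, Cd4 in 2, Lck in 3 and Cd3g in 6. In such bulk tissue, fewer cells of a type and less RNA per cell cannot be told apart.

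Most interleukin genes were near background in these tumours. In all 12 libraries only 4 of the 29 were above the limit, against 329 of 750 endogenous genes: Il18bp, Il18r1, Il6ra and the epithelial alarmin Il33. At least 6 libraries held 9 of the 29 above the limit (31%), against 61.6% of all genes, and 11 of the 29 were above it in none (37.9%, against 19.7%). Among these 11 were the T cell cytokines Il2, Il4 and Il17a, together with Il6, Il10 and Il24 and the receptor chains Il2ra, Il12rb2 and Il23r. Their raw counts stayed between 2 and 25, so differences between groups were not detectable for them at this depth. Il11 and Il22ra1 complete the 11. For testing, 2 or more libraries had to reach a raw count of 20, which held for 19 interleukin genes and 615 endogenous genes; Il1a was the other interleukin gene left out, with 9 to 34 counts. A count over these 19 describes the genes that passed this filter, not the family.

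**Figure D1:**
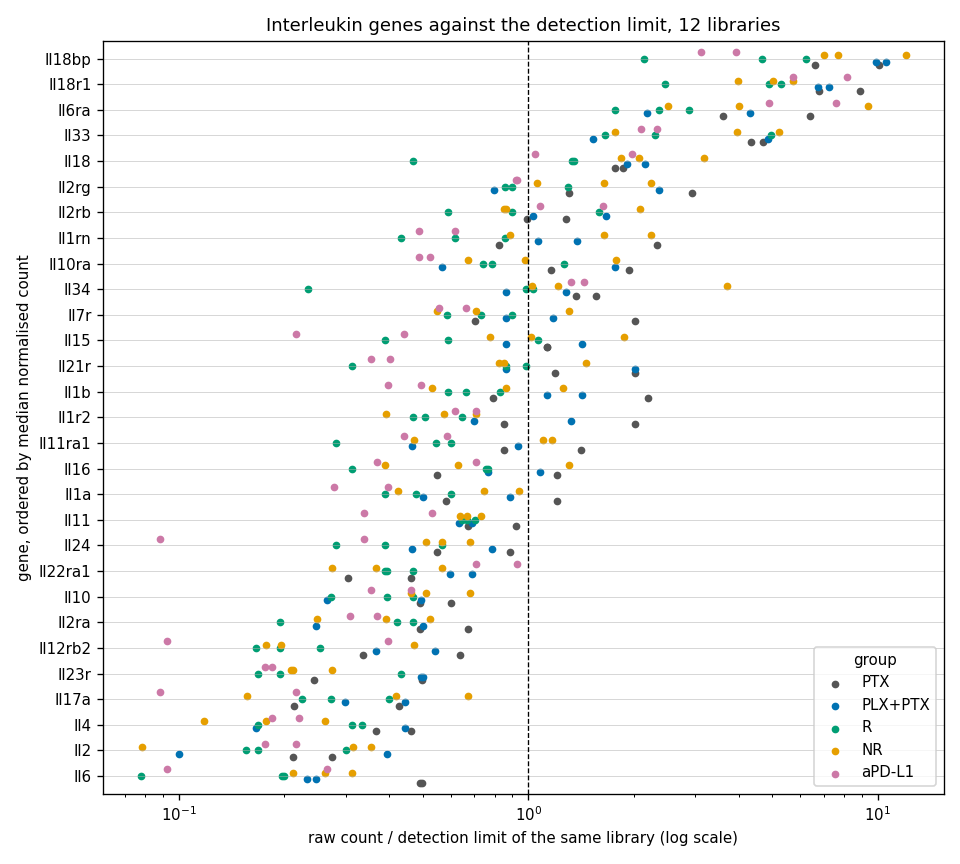
Raw count of each of the 29 interleukin genes (rows) divided by the detection limit of the same library (log axis); each dot is 1 of 12 libraries, coloured by group, and the dashed line is the limit. The top 4 genes lie right of the line in all 12 libraries and 11 genes lie left of it in all 12.

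Among the interleukin-1 family, the level was carried by the interleukin-18 system and Il33. Il18bp, the secreted protein that neutralises interleukin-18, had the highest median of the 29 probes (160.0 normalised counts; probes differ in efficiency, so this order is one of counts and not of molecules). Its values were 158 and 160 in PTX, 282 and 187 in PLX+PTX, 164, 108 and 160 in R, 166, 156 and 160 in NR, and 134 and 257 in the PD-L1 antibody group. PLX+PTX held the highest library, and its pair lay above both PTX libraries and all 6 of R and NR. The ligand Il18 itself was above the limit in 11 libraries, with 27.8 and 44.9 normalised counts in PTX, 61.7 and 34.0 in PLX+PTX, 35.2, 23.6 and 46.1 in R, 44.8, 40.9 and 42.5 in NR, and 45.1 and 130.0 in the PD-L1 antibody group. Apart from that last library the groups overlapped. Il33, which epithelial and stromal cells release on damage, ran from 39.3 to 153 normalised counts, and the PD-L1 antibody pair (90.3 and 153) lay above both PLX+PTX libraries (43.7 and 86.2) and all 3 of NR (39.3 to 85.4). The remaining groups overlapped with each other. Raw counts of Il33 were 68 and 53 in the PD-L1 antibody group, 46 and 99 in PLX+PTX and 101, 50 and 100 in NR. The separation of the PD-L1 antibody pair therefore appears only after scaling.

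The inflammatory ligand Il1b passed the limit in 4 libraries and its antagonist Il1rn in 5. Il1b had 34.5 and 19.1 normalised counts in PTX, 32.3 and 25.2 in PLX+PTX, 22.0, 33.5 and 20.2 in R, 18.6, 11.8 and 16.7 in NR, and 21.2 and 26.0 in the PD-L1 antibody group. The 3 NR libraries were the 3 lowest of the 12. The decoy receptor Il1r2 had 31.7 and 20.6 in PTX, 19.9 and 23.5 in PLX+PTX, 12.3, 25.6 and 22.1 in R, 8.45, 15.7 and 7.66 in NR, and 30.5 and 40.5 in the PD-L1 antibody group. NR lay lowest by mean (10.6 ± 4.45), below its own scaled background of 11.9. Il1rn showed no such order, with group means from 25.3 ± 16.4 (n = 3) in R to 29.2 ± 3.70 (n = 2) in the PD-L1 antibody group.

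**Figure D2:**
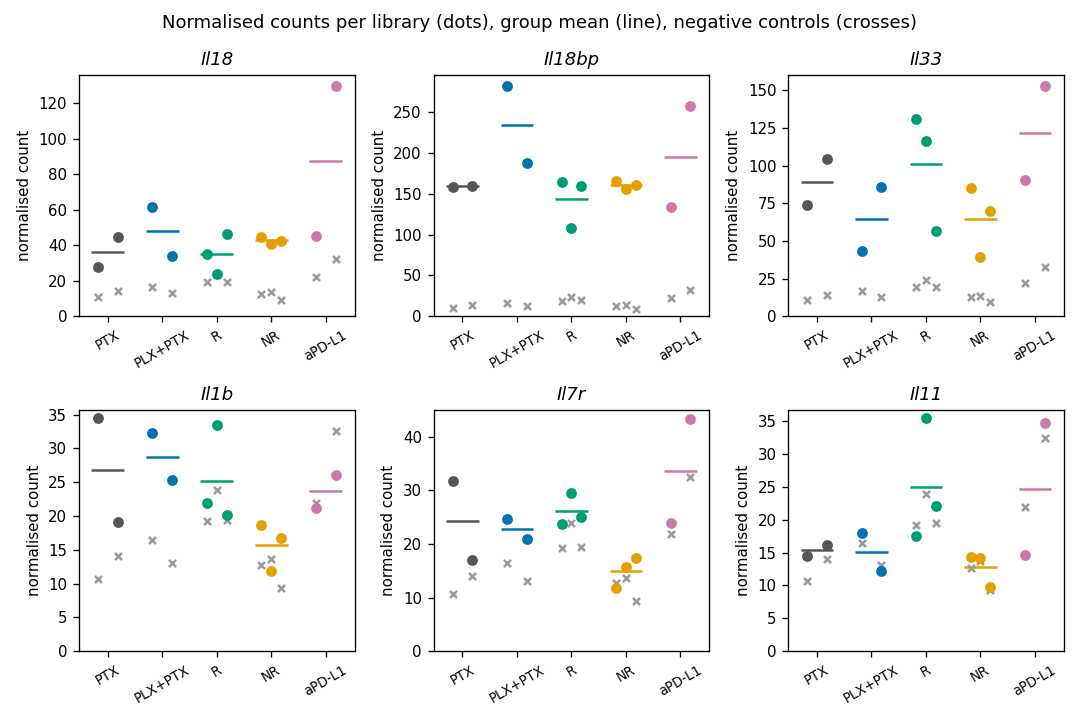
Normalised counts of Il18, Il18bp, Il33, Il1b, Il7r and Il11 in each of 12 libraries (dots) with the group mean (line) and the scaled negative-control mean of the same library (grey crosses). Il18, Il18bp and Il33 stand above the crosses in nearly every library, Il18 in R replicate 2 being level with its cross, while Il1b, Il7r and Il11 lie close to them.

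The common gamma chain group was represented mainly by receptor chains. Il2rg, the shared chain itself, was above the limit in 7 libraries and ranged from 22.8 to 60.7 normalised counts, with group means of 38.9 ± 10.2 (n = 2) in PTX, 32.3 ± 13.4 (n = 2) in PLX+PTX, 36.1 ± 6.49 (n = 3) in R, 29.7 ± 5.96 (n = 3) in NR and 50.2 ± 14.8 (n = 2) in the PD-L1 antibody group. Il2rb, which pairs with it to receive interleukins 2 and 15, also passed the limit in 7. Il7r, the interleukin-7 receptor chain of naive and memory T cells, passed it in 3 and Il21r, the interleukin-21 receptor chain, in 4, with ranges of 11.8 to 43.3 and 15.8 to 35.7 normalised counts. Il15, the ligand that sustains natural killer and memory T cells, passed the limit in 6 libraries, on low raw counts of 7 to 37. Its group means lay between 19.1 ± 13.9 (n = 2) in the PD-L1 antibody group and 25.0 ± 0.396 (n = 2) in PLX+PTX.

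Of the receptors for interleukins 6 and 11, Il6ra was the only one far above background. It had 101 and 86.9 normalised counts in PTX, 62.7 and 76.6 in PLX+PTX, 62.4, 146 and 60.6 in R, 54.1, 88.9 and 125 in NR, and 327 and 321 in the PD-L1 antibody group. Those last libraries were more than any of the other 10. Among these the groups overlapped, except that both PLX+PTX libraries lay below both PTX libraries. Raw counts were 246 and 111 in the PD-L1 antibody group and 181 and 118 in PTX. The separation of both PD-L1 antibody libraries from the other 10 therefore appears only after scaling. Il11ra1 passed the limit in 3 libraries, with 9.61 to 28.9 normalised counts, and its ligand Il11, a cytokine of stromal cells, in none. Among the receptors of the interleukin-10 family, Il10ra passed it in 5 libraries, with 14.9 to 37.4 normalised counts, and Il22ra1, the epithelial chain that receives interleukin-22, in none. Il16, a chemoattractant of CD4+ cells, passed the limit in 3 libraries and ranged from 8.65 to 46.2.

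The PD-L1 antibody group gave every call made among the interleukin genes. In PLX+PTX+aPD-L1 against PLX+PTX, Il6ra was the 1 of 19 tested interleukin genes to pass an adjusted p of 0.05 (5.26%, against 2.28% of all 615 genes). It rose from 69.6 ± 9.86 (SD, n = 2) to 324 ± 4.09 (n = 2), a log2 fold change of 2.21 (SE 0.48, adjusted p = 0.0287). In the PD-L1 antibody group the raw counts were 246 and 111. The count of 246 was the highest of the 12 libraries, although the total of that library was among the lowest. The count of 111 lay below 181 and 118 in PTX and 113 and 180 in NR replicates 2 and 3. Both PD-L1 antibody counts exceeded the 66 and 88 of the 2 PLX+PTX libraries. The call rests on each of these 4 libraries: without PLX+PTX replicate 1 or 2 its adjusted p was 0.266 or 0.162, and without PD-L1 replicate 1 or 2 it was 0.0689 or 0.0723, with a log2 fold change of 2.08 to 2.37 over all libraries left out in turn.

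Against the R and NR mean, Il6ra, Il18r1 and Il22ra1 rose, 3 of 19 (15.8%, against 5.69% of all genes). Without Il22ra1, whose test is limited as described below, there were 2 of 18 (11.1%), against 4.76% of the 609 genes that met the filter in the other 10 libraries. All 3 are receptor chains, though Il22ra1 cannot count towards a contrast with ligands. None of the 7 tested ligands was called, a number too small to set against the 5.69% of all genes. With scaling on the positive controls the calls were instead Il22ra1 and, lower, the ligand Il15 (log2 fold change -1.52). Il6ra rose by a log2 fold change of 1.87 (SE 0.35, adjusted p = 0.00660). Il18r1, the chain by which natural killer and T helper cells bind interleukin-18, had 140 and 164 normalised counts in PTX, 193 and 129 in PLX+PTX, 140 and 124 and 167 in R, 108, 127 and 52.9 in NR, and 247 and 535 in the PD-L1 antibody group. Both libraries of that last group were above the other 10, though they differed from each other by more than the whole range of those 10. The raw counts were 186 and 185, above those of R (159, 63 and 174) and NR (128, 162 and 76). In PTX they were 252 and 223 and in PLX+PTX 203 and 148. The separation from PTX and from PLX+PTX replicate 1 therefore appears only after scaling. The log2 fold change was 1.72 (SE 0.34, adjusted p = 0.00875), and against PLX+PTX alone it was 1.27 (SE 0.45, adjusted p = 0.196).

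Il22ra1 gave the largest fitted change of the 19 against the R and NR mean, on low counts. It had 7.23 and 7.36 normalised counts in PTX, 17.1 and 12.2 in PLX+PTX, 12.3, 19.7 and 13.5 in R, 5.92, 12.6 and 4.88 in NR, and 30.5 and 60.7 in the PD-L1 antibody group. The last pair lay above the other 10, yet its raw counts, 23 and 21, were under the detection limits of 32.5 and 22.7 of these libraries. Its raw count divided by the negative-control mean was 1.39 and 1.87 there and at most 1.04 in the other 10. The log2 fold change against the R and NR mean was 2.02 (SE 0.38, adjusted p = 0.00659). Only these 2 libraries reached the 20 counts of the filter, so the gene was tested because it was high there, and its call cannot count as support.

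Without PD-L1 replicate 2, the shallowest library, none of these 3 passed against the R and NR mean: the adjusted p was 0.0566 for Il6ra, 0.222 for Il18r1 and 0.109 for Il22ra1. The log2 fold change of Il6ra was then 1.88, that of Il18r1 1.07 and that of Il22ra1 1.51, with the lone PD-L1 antibody library assumed to vary like the other groups. Without both libraries of low housekeeping signal, R replicate 2 and PD-L1 replicate 2, Il6ra alone passed. Among all 5 groups, the test for any difference called Il6ra (adjusted p = 0.0408) and Il22ra1 (adjusted p = 0.0316), 2 of 19 (10.5%, against 2.93% of all genes), or, without Il22ra1, 1 of 18 (5.56%, against 1.97% of the 609). At an unadjusted p under 0.05 it took 6 of 19, Il22ra1 among them (31.6%, against 14.1%).

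**Figure D3:**
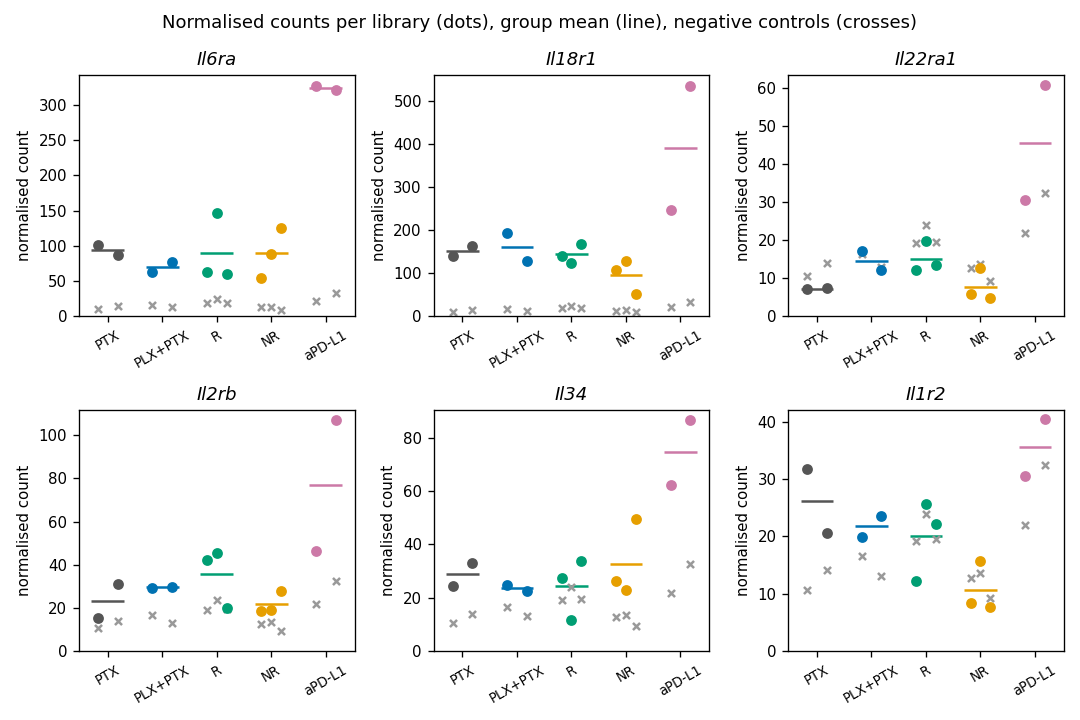
Normalised counts of Il6ra, Il18r1, Il22ra1, Il2rb, Il34 and Il1r2 in each of 12 libraries (dots) with the group mean (line) and the scaled negative-control mean of the same library (grey crosses). In all 6 genes both PD-L1 antibody libraries lie above the R and NR libraries, with Il22ra1 and Il1r2 nearest to the crosses.

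Further interleukin genes leaned the same way without passing the test. Il34 had 24.5 and 33.1 normalised counts in PTX, 24.7 and 22.6 in PLX+PTX, 27.2, 11.8 and 33.6 in R, 26.2, 22.8 and 49.5 in NR, and 62.4 and 86.7 in the PD-L1 antibody group. No other library reached the level of the last 2 in normalised counts. Their raw counts were 47 and 30, against 71 in NR replicate 3 and 44 and 45 in PTX. Divided by the negative-control mean, these counts were 2.85 and 2.67, against 5.31 in NR replicate 3. The separation from the other 10 libraries therefore appears only after scaling. The log2 fold change of Il34 was 1.63 (SE 0.49, adjusted p = 0.128) against PLX+PTX and 1.34 (SE 0.38, adjusted p = 0.0602) against the R and NR mean. Csf1, the other ligand of CSF1R, had similar means in PLX+PTX (172 ± 49.1) and in the PD-L1 antibody group (186 ± 100.2), and the receptor gene Csf1r had 164 ± 43.2 and 119 ± 11.1.

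Il2rb had 15.6 and 30.9 normalised counts in PTX, 29.4 and 29.6 in PLX+PTX, 42.2, 45.3 and 20.2 in R, 18.6, 18.9 and 27.9 in NR, and 46.5 and 107 in the PD-L1 antibody group. The lower PD-L1 antibody library exceeded the highest R library only slightly. In raw counts R replicate 1, with 48, stood above both PD-L1 antibody libraries (35 and 37). The log2 fold change of Il2rb against the R and NR mean was 1.41 (SE 0.40, adjusted p = 0.0602), and that of Il1r2 was 1.27 (SE 0.37, adjusted p = 0.0694). Il1r2 was above the detection limit in 0 libraries of the PD-L1 antibody, R and NR groups. Its raw counts in the PD-L1 antibody group were 23 and 14, under the limits of 32.5 and 22.7.

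In counts, 5 of 19 interleukin genes had an unadjusted p under 0.05 against PLX+PTX (26.3%, against 16.1% of all genes) and 7 against the R and NR mean (36.8%, against 17.9%). By normalised count, both PD-L1 antibody libraries lay above both PLX+PTX libraries for 8 of 19 (42.1%, against 23.1%) and below them for 1, Il21r (5.26%, against 21.3%). They lay above all 6 R and NR libraries for 6 of 19 (31.6%, against 11.5%). Each of these counts except that of Il21r includes Il22ra1, which met the filter only through the PD-L1 antibody libraries. The shares are therefore in part set by the filter. The median log2 fold change of the 19 was 0.60 against PLX+PTX and 0.67 against the R and NR mean, where all 615 genes gave -0.02 and 0.10. The 148 endogenous probes above the limit in no library had median log2 ratios of mean normalised counts of 0.71 and 0.74. These ratios are not fitted fold changes, so small gaps between the measures are not interpreted. The 2 comparisons share the PD-L1 antibody libraries.

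**Figure D4:**
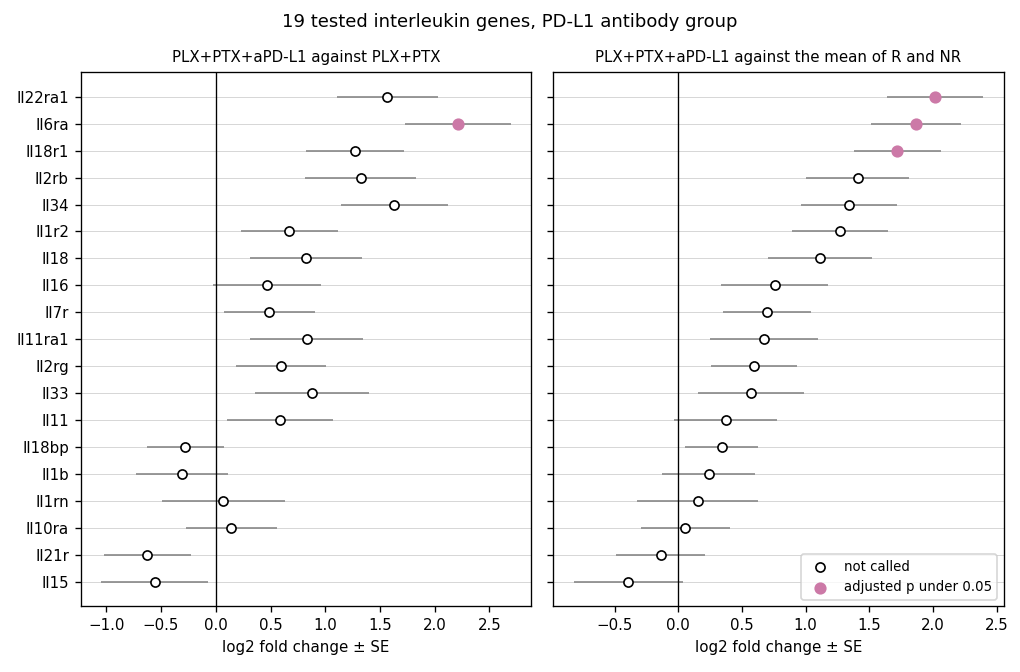
Log2 fold change (dot) ± SE (bar) of the 19 tested interleukin genes in the PD-L1 antibody group against PLX+PTX (left) and against the R and NR mean (right); filled dots passed an adjusted p of 0.05. Il6ra is filled on both sides, Il22ra1 and Il18r1 on the right side alone, and Il15 and Il21r lie below 0 on both.

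Markers of other cells differed in the same libraries. The summed level of the 10 T cell markers was 246 to 353 normalised counts in the PD-L1 antibody group and 116 to 184 in the other 10 libraries. Both ranges lay close to background: 10 probes at the negative-control mean would sum to 219 to 325 and 93.2 to 239, and the ratio of the sum to that value was 1.08 to 1.12 and 0.726 to 1.30. Of 6 tested, the T cell kinase Zap70 and the adhesion receptor Cd2 were called in both comparisons, with log2 fold changes against the R and NR mean of 2.68 and 2.01. Raw counts of Zap70 were 49 and 27, against at most 16 elsewhere, and those of Cd2 were 32 and 17, against at most 25, with Cd2 above the limit in 0 libraries. Of the 6 mast cell and basophil markers 4 were tested and 1 was called, Hdc, the enzyme that makes histamine, with log2 fold changes of 3.36 (SE 0.54, adjusted p = 0.00369) against PLX+PTX and 3.79 (SE 0.39, adjusted p = 9.9e-05) against the R and NR mean. Its raw counts were 92 and 56, against at most 36 elsewhere, while the summed level of that list, 397 to 1046 against 425 to 998, overlapped. Like Il22ra1, the genes Zap70, Cd2 and Hdc met the filter only with the help of the PD-L1 antibody libraries. Of 3 fibroblast and matrix markers, Pdgfrb was called against the R and NR mean (log2 fold change 1.84, adjusted p = 0.00709), and the list summed to 123 to 257 against 91.3 to 169.8. The 3 endothelial markers summed to 292 to 725 against 109 to 277, with Kdr called against the R and NR mean (log2 fold change 2.45). The 2 epithelial markers summed to 5192 to 5346 against 5951 to 8447, and the 8 macrophage and monocyte markers to 705 to 1361 against 975 to 2735. The 4 natural killer cell markers, at 51.8 to 63.6 against 36.1 to 72.9, overlapped. The part of cell content, low depth and raised background in the interleukin receptor levels was not tested.

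Genes that act with or downstream of interleukin receptors were called at about the rate of the panel: against the R and NR mean, 2 of 40 tested over 4 lists (5%), beside 5.69% of all genes. Of 9 Janus kinase, STAT and SOCS genes on the panel, 8 were tested and 0 were called in any of the 6 comparisons. Of 7 genes of interleukin-1 and interleukin-18 signalling and the inflammasome, 1 was called, Nlrp3, the sensor of the inflammasome, against the R and NR mean (log2 fold change 1.60, SE 0.34, adjusted p = 0.0139). It passed the limit in 1 library, outside the PD-L1 antibody group. In that group its raw counts were 24 and 17, under the limits of 32.5 and 22.7, against up to 33 elsewhere. Of 17 cytokine-induced effector and acute phase genes, 15 were tested and 1 was called, S100a9, a subunit of calprotectin, in the same comparison (log2 fold change 2.31, adjusted p = 0.0253). Its raw counts were 55 and 39, against up to 180 elsewhere. The other subunit, S100a8, had a fitted change in the opposite direction. The 5 neutrophil markers, which include both subunits, summed to 639 to 778 against 394 to 3071, and so overlapped. Of 13 other cytokines and receptors that share chains with interleukins, 10 were tested and 0 called.

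R and NR differ by their suffix alone, and their comparison asks how the tumours of the PD-1 antibody arm differ between these labels. No interleukin gene passed edgeR's test (0 of 19, and 0% of all genes), and the DESeq2 test and limma-voom also called 0, here and in the 3 comparisons described after it. At an unadjusted p under 0.05 there were 4 of 19, all higher in R (21.1%, against 6.83% of all genes): Il11, Il1r2, Il7r and Il10ra. Il11 had 17.6, 35.5 and 22.1 normalised counts in R and 14.4, 14.2 and 9.75 in NR, a log2 fold change of 0.91 (SE 0.37, adjusted p = 0.644). Il7r had 23.7, 29.6 and 25.0 in R and 11.8, 15.7 and 17.4 in NR (log2 fold change 0.77, SE 0.33, adjusted p = 0.644). The groups did not overlap for either gene, nor for Il10ra (33.4, 37.4 and 26.9 against 21.1, 14.9 and 23.7) and Il1b, 4 of 19 in all (21.1%, against 11.5%).

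These differences lay where background also differed. The scaled negative controls were 20.9 ± 2.63 in R and 11.9 ± 2.28 in NR, while the group means of the 4 genes were 20.0 to 32.6 in R and 10.6 to 19.9 in NR. The median log2 fold change of the 19 was 0.58, against 0.11 for all genes. For the 148 probes above the limit in no library, the median log2 ratio of group means was 0.61. Of the 4 interleukin genes above the limit everywhere, Il6ra (log2 fold change -0.03, SE 0.38), Il18bp (-0.15, SE 0.29), Il18r1 (0.58, SE 0.37) and Il33 (0.64, SE 0.42) had unadjusted p-values over 0.05.

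**Figure D5:**
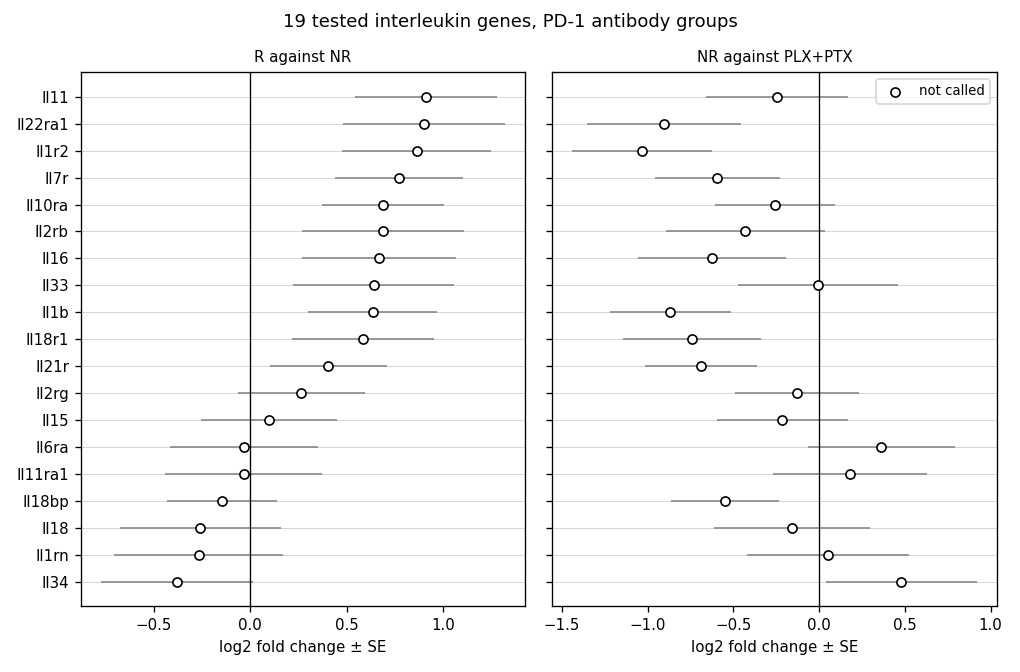
Log2 fold change (dot) ± SE (bar) of the 19 tested interleukin genes for R against NR (left) and NR against PLX+PTX (right); open dots did not pass an adjusted p of 0.05. No dot is filled; Il11, Il22ra1 and Il1r2 lie farthest right on the left side.

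Adding the PD-1 antibody to PLX+PTX called no interleukin gene in NR or in R (0 of 19 each, and 0% of all genes in both). In NR, 2 of 19 had an unadjusted p under 0.05, both lower (10.5%, against 3.74% of all genes). They were Il1r2, with a log2 fold change of -1.03 (SE 0.41), and Il1b, with -0.87 (SE 0.35), each at an adjusted p of 0.929. For 8 of 19 all 3 NR libraries were below both PLX+PTX libraries (42.1%, against 18.4%): Il18r1, Il2rb, Il16, Il1b, Il18bp, Il1r2, Il7r and Il21r. The median of the 19 was -0.26, beside -0.18 for all genes. For the probes above the limit in no library, the median log2 ratio of group means was -0.26. Scaling by TMM brought the fitted medians to -0.07 for the 19 and 0.03 for all genes.

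In R, Il18bp alone had an unadjusted p under 0.05 (1 of 19, 5.26%, against 2.44% of all genes), and it was also the only 1 whose 3 libraries lay below both PLX+PTX libraries (5.26%, against 9.43%). Its means were 144 ± 31.0 (n = 3) and 235 ± 67.0 (n = 2), a log2 fold change of -0.69 (SE 0.32, adjusted p = 0.979). Il11 had the next smallest p, with a log2 fold change of 0.67 (SE 0.41, adjusted p = 0.979). The median of the 19 was 0.05, against -0.07 for all genes.

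PLX+PTX against PTX asks what CSF1R inhibition adds to chemotherapy, and no interleukin gene passed the test (0 of 19, and 0% of all genes). At an unadjusted p under 0.05 the count was also 0, against 1.95% of all genes. Both PLX+PTX libraries were above both PTX libraries for Il16, Il22ra1 and Il18bp (3 of 19, 15.8%, against 18.9%) and below them for Il6ra and Il11ra1 (2 of 19, 10.5%, against 16.3%), shares near those of the panel. The smallest p-values belonged to Il22ra1, below the detection limit in all 4 libraries, with a log2 fold change of 0.99 (SE 0.49), and to Il18bp, with 0.56 (SE 0.35). Il6ra had -0.43 (SE 0.47), and all 3 had an adjusted p of 0.996. For Il34 it was -0.28 (SE 0.48). The median of the 19 was -0.02, beside 0.03 for all genes.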

How the data were processed

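RNA from 10-20 mg of snap-frozen tumour was made into cDNA, enriched for the panel's targets and counted with the nCounter Mouse PanCancer IO360 panel, per the labels' protocols. Raw counts, as deposited, cover 784 probes (750 endogenous, 20 housekeeping, 8 negative and 6 positive controls), per the file headers. A second deposited table gives log2 values. DESeq2 and limma appear in the submitters' processing notes with no role stated, so the counts were analysed and the log2 values served as an alternative.

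Groups came from the titles and treatment labels, and replicates were numbered in deposition order. Counts were scaled on the housekeeping geometric mean. Means ± SD are of these normalised counts. All 12 libraries entered 1 model with 5 group means, tested by quasi-likelihood in edgeR 4.0.16 (R 4.3.3; 7 residual degrees of freedom), with 6 comparisons and a test for any difference. P-values were Benjamini-Hochberg adjusted over 615 genes with a threshold of 0.05, and adjusted p-values in the text are from this fit. Alternatives were TMM and DESeq2 size factors, DESeq2 1.42.0, limma 3.58.1 (voom, deposited log2 values, negative-control subtraction with a pseudocount of 1), other filters and each library left out. The interleukin genes and the pathway and marker lists were chosen with earlier results of these data known. Values by library or group are given for interleukin genes called in any test, those above the detection limit in 6 or more libraries and the 2 of smallest p in each comparison, with ranges for others and values for called genes of the lists. Csf1 and Csf1r were added as partners of Il34, and genes named for non-overlapping groups were chosen after their values were seen. Replicates differed beyond sampling noise, with a chi-square per degree of freedom of at least 13.2. Promoter sequences and neighbours came from RefSeq tables of GRCm38.p6. Intervals are not given, and error near background includes counting error.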

Additional observations from a re-analysis of the deposited data

How the results depend on the processing

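With the PD-L1 antibody against PLX+PTX, 1 interleukin gene was called. The DESeq2 test called 2 (Il34 and Il6ra), and 0 were called when a probe had to pass the limit in 10 libraries, with the deposited log2 values, and with scaling on the positive controls; leaving out 1 library gave 0 to 1. Subtracting the negative controls called Il22ra1 in place of Il6ra. Against the R and NR mean, 3 were called. The DESeq2 test gave 5, subtracting the negative controls 1, omitting the libraries of low housekeeping signal 1, scaling on the positive controls 2 (Il22ra1 and Il15, not Il6ra or Il18r1), and leaving out 1 library 0 to 5. For any difference among groups, 2 were called, with 1 by DESeq2 size factors, limma-voom, negative-control subtraction and the deposited log2 values, 0 with the stricter filter, without the libraries of low housekeeping signal and with positive-control scaling, and 0 to 2 when 1 library was left out. The cause of these shifts was not tested, beyond the fewer genes or libraries that the stricter filter and the omissions leave. In the other 4 comparisons, 0 interleukin genes were called under every alternative run, and none of the called changes reversed. The log2 fold change of Il6ra lay between 1.21 and 2.43 against PLX+PTX, past the threshold in 14 of 22 alternatives. Against the R and NR mean, Il6ra passed in 19 of 22, Il22ra1 in 19 of 21 and Il18r1 in 18 of 22. Many of the alternatives leave out a library of a group outside the comparison, which hardly tests it, so these tallies do not measure robustness. That of Il22ra1 cannot count as support, since the gene met the filter only through the PD-L1 antibody libraries.

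Over all genes, the 14 calls against PLX+PTX became 0 to 59, the 35 against the R and NR mean became 4 to 170, the 18 for any difference became 0 to 40, and the 0 for R against NR became 3 with the deposited log2 values. Scaling on the positive controls, chosen after seeing the data, does not correct for RNA input. It moved the median of all genes to -1.03 and -0.95 in the PD-L1 antibody comparisons, where 8 genes were then called higher and 51 lower (14 and 0 in the main setting) and 12 higher and 158 lower (35 and 0). Of the 19 interleukin genes, 5 and 6 then lay above 0, against 15 and 17. The counts over genes that met the filter without the PD-L1 antibody group were also chosen after seeing the data. A further added alternative leaves out all 3 libraries of low total count, and with them the PD-L1 antibody group. No paired analysis was possible because the labels give no replicate numbers that groups share. With 2 or 3 samples a group and most probes near the detection limit, small differences in these genes were not detectable.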

Other observations

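The 29 interleukin genes lie on 13 chromosomes, in a RefSeq gene table of GRCm38.p6. Il1a and Il1b are direct neighbours, as are Il12rb2 and Il23r. The decoy receptor Il1r2 and Il18r1 are separated by 3 genes of the same receptor cluster (Il1r1, Il1rl2 and Il1rl1), and in the PD-L1 antibody group, set against the R and NR mean, their log2 fold changes were 1.27 (SE 0.37) and 1.72 (SE 0.34). Il1r2, however, was above the detection limit in 0 libraries of the PD-L1 antibody, R and NR groups. Il24 and Il10 are separated by 2 genes, Il20 and Il19, and both were above the detection limit in 0 libraries.

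The 29 probes made up 0.273% to 0.415% of endogenous counts outside the PD-L1 antibody group, over 10 libraries, and 0.713% and 0.774% in the PD-L1 antibody group. Their summed normalised count was 966 ± 7.70 (SD, n = 2) in PTX, 1000.3 ± 83.8 (n = 2) in PLX+PTX, 972 ± 69.2 (n = 3) in R, 789 ± 18.5 (n = 3) in NR and 1771 ± 618 (n = 2) in the PD-L1 antibody group. In the last group Il6ra and Il18r1 alone came to means of 324 and 391. Background was not subtracted from these shares and sums. The scaled negative-control mean per probe was 27.2 in the PD-L1 antibody group, against 11.9 in NR to 20.9 in R among the others. How much of the higher level is background was not tested.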
